A study of Caenorhabditis elegans with 39 samples.

Results

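miR-51, miR-52 and miR-53 are the chromosome IV members of the miR-51 family of Caenorhabditis elegans, and their reads were followed in 39 small RNA libraries. Every row of the count table named for an arm of these 3 hairpins was taken, which gave 6 rows of 437, and all 6 passed the filter on low counts that 243 rows passed. The libraries hold total RNA of whole worms of 3 genotypes in the N2 background. Alg1E and Alg1A are mutants of ALG-1, whose letters the labels do not spell out, and N2 is the wild type. Each genotype was sampled at 25 degrees with 1 library for every hour from 18 to 30 h after synchronized first-stage (L1) larvae were plated, which makes 13 libraries per genotype. No treatment, sex or further allele is given, and the labels do not say how many lines carry each mutant form or whether the hourly worms came from separate cultures. The p-values therefore rest on how much hourly libraries vary, and that variation may be technical.

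A miRNA hairpin is cut into a duplex of a 5p and a 3p arm. An Argonaute keeps the guide strand and normally discards its partner, the passenger strand. alg-1 encodes an Argonaute of the miRNA pathway, and the series title concerns its phosphorylation and the binding of miRNAs. The miR-51 family is related to the vertebrate miR-99 and miR-100 family. Its members act redundantly in the C. elegans embryo, where losing all of them is lethal and the pharynx fails to stay attached. In miR-51, miR-52 and miR-53 the family seed, the stretch that pairs with targets, lies on the 5p arm, which is their guide. In miR-54, miR-55 and miR-56, the members on chromosome X, it lies on the 3p arm.

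In the WBcel235 assembly (ce11), mir-51 lies on chromosome IV from 11026013 to 11026112 and mir-53 from 11027593 to 11027691, both on the minus strand. The 2 hairpins are 1480 bases apart, in the intergenic stretch between the protein-coding genes alh-3 and hrg-5. mir-52 lies 3006316 bases from mir-53, at 14034008 to 14034107 on the plus strand, and is intergenic between irld-55 and Y37A1B.7. The annotated 5p arms are 23 (miR-51), 24 (miR-52) and 24 (miR-53) nucleotides long, and the 3p arm of each hairpin is 22 nucleotides long. miR-52-5p and miR-53-5p are near-identical, so the authors' mapping decides how reads fall between them. Their separate values are uncertain.

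The median library held 2105603 miRNA reads in Alg1E, 2892326 in Alg1A and 3529334 in N2. Marker miRNAs of muscle (miR-1-3p), intestine (miR-60-3p) and neurons (lsy-6-3p, miR-124-3p and miR-791-3p) had reads in every library, as whole worms should. Levels below are counts-per-million (CPM), in miRNA reads, after TMM scaling. Some libraries stood apart. At 27 h in Alg1E all 5 markers were at their lowest for that genotype, with miR-60-3p at 8049 CPM against a median of 18452 CPM. At 18 and 19 h in Alg1A, miR-1-3p had 36469 and 17156 CPM, against 66512 to 125925 CPM in N2, and miR-60-3p had 7335 and 5238 CPM, against 20571 to 35981 CPM in N2. At 23 h in N2, miR-1-3p, miR-60-3p and miR-124-3p were at their lowest for that genotype, with 66512, 20571 and 126 CPM. There lsy-6-3p and miR-791-3p were lowest at other hours. Some results that rest on the Alg1E and Alg1A libraries are given with and without them, and others only with them. No fit left out the 23 h library of N2 alone. The part of tissue content in these libraries was not tested.

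The family's chromosome IV members made up a large share of all miRNA reads. The 5p arms of the 3 hairpins together took 10.8% ± 1.78 of miRNA reads in Alg1E, 12.2% ± 3.87 in Alg1A and 12.4% ± 1.97 in N2 (mean ± SD of 13 libraries). With the 3p arms of miR-54 to miR-56 the shares came to 16.2% ± 3.62 in Alg1E, 18.0% ± 5.44 in Alg1A and 19.0% ± 3.52 in N2. miR-52-5p alone held 52.5% ± 7.82 of these family reads in Alg1E, 59.0% ± 4.14 in Alg1A and 55.7% ± 3.27 in N2.

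miR-52-5p was the most abundant member by far. It averaged 74631 ± 10267 CPM in Alg1E, 109445 ± 40523 CPM in Alg1A and 114141 ± 16258 CPM in N2 (mean ± SD of 13 libraries). From 20 h on it ranged from 75101 to 106466 CPM in Alg1A, against 143264 CPM at 18 h and 232977 CPM at 19 h. By mean level it ranked 3 among all miRNAs in Alg1E, 2 in Alg1A and 1 in N2. Its neighbours in that order were not cleanly separated from it. miR-58a-3p, a miRNA of the bantam-related family, was above miR-52-5p at 12 of 13 hours in Alg1E, at 7 in Alg1A and at 5 in N2.

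miR-51-5p and miR-53-5p stood far lower and did not separate from each other in Alg1A. miR-51-5p averaged 13836 ± 7648 CPM in Alg1E, 8470 ± 3737 CPM in Alg1A and 11424 ± 3436 CPM in N2. miR-53-5p averaged 7970 ± 886 CPM in Alg1E, 8021 ± 2880 CPM in Alg1A and 8573 ± 1238 CPM in N2 (mean ± SD of 13 libraries). miR-51-5p was above miR-53-5p at 11 of 13 hours in Alg1E, at 5 in Alg1A and at 11 in N2. In each genotype the means of the 3p arms then ran from miR-52-3p through miR-51-3p down to miR-53-3p. All 6 rows are 22 to 24 nucleotides long, so reads are compared without a length correction, but ligation and amplification can differ between miRNAs.

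**Figure D1:**
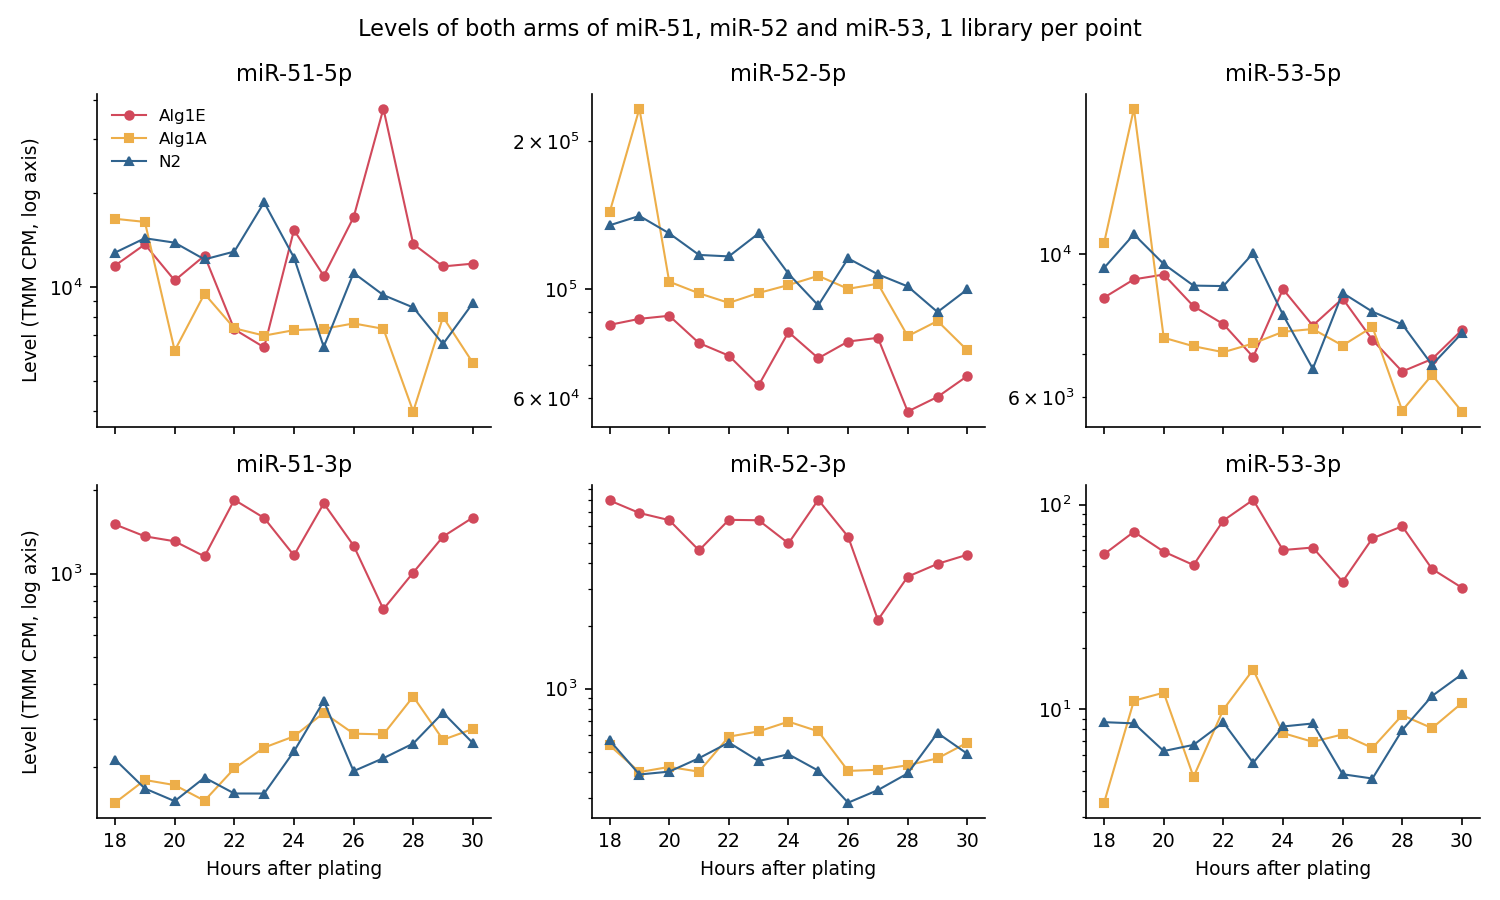
Levels (TMM CPM, log axis) of the 5p arms (top) and 3p arms (bottom) of miR-51, miR-52 and miR-53 against hours after plating; each point is 1 library, with red circles for Alg1E, yellow squares for Alg1A and blue triangles for N2. The 3p arms of Alg1E lie above those of Alg1A and N2 at all 13 hours, miR-52-5p of Alg1E lies below N2 at all 13 hours, and miR-51-5p of Alg1E peaks at 37475 CPM at 27 h.

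The passenger arms of all 3 hairpins rose in Alg1E. miR-52-3p ranged from 2134 to 8024 CPM in Alg1E with a median of 5345, against 285 to 614 CPM in N2 with a median of 451. The lowest Alg1E library was thus above the highest N2 library. The difference of 3.57 on the log2 scale (SE 0.141, adjusted p = 1.24e-19, edgeR's quasi-likelihood test with Benjamini-Hochberg adjustment) amounts to 11.9-fold and was the largest estimate among the 243 miRNAs tested. Its first place is not settled, since miR-56-5p at rank 3 had 3.45 (SE 0.123).

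miR-51-3p ranged from 744 to 1846 CPM in Alg1E with a median of 1360, against 151 to 347 CPM in N2 with a median of 214. It was higher in Alg1E at 13 of 13 hours, by 2.68 on the log2 scale (SE 0.143, edgeR adjusted p = 1.53e-16), or 6.39-fold. miR-53-3p, the rarest arm, ranged from 39.3 to 105 CPM in Alg1E with a median of 59.9, against 4.60 to 14.8 CPM in N2 with a median of 8.26. Those levels rest on 69 to 330 reads per library in Alg1E, against 14 to 36 in N2. It too was higher at 13 of 13 hours, by 2.98 on the log2 scale (SE 0.183, edgeR adjusted p = 4.84e-15), or 7.91-fold. Neither arm's Alg1E range overlapped that of N2. The same held for miR-54-5p, miR-55-5p and miR-56-5p, the passenger arms of the chromosome X hairpins. The share of all miRNAs without overlap is not given, so non-overlap here and below does not set an arm apart.

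Rises of passenger arms were common in Alg1E. Of 243 miRNAs, 182 were called between Alg1E and N2 (74.9%), 88 higher and 94 lower. Calling means an adjusted p under 0.05. Of the members, edgeR called 4 of 6, which is near that background. DESeq2 called 5 of 6, and its count over all miRNAs is not given here. Among 96 hairpins with both arms tested, 73 minor arms (of a hairpin's arms, the rarer over the whole set of libraries) were higher in Alg1E and 4 lower, with a median log2 difference of 1.66. The passenger arms of the 3 hairpins lay above that median. Across all 243 miRNAs miR-52-3p ranked 1, miR-53-3p 11 and miR-51-3p 20 from the highest difference.

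The guide arms did not move together between Alg1E and N2. miR-52-5p fell in Alg1E, ranging from 56395 to 88308 CPM with a median of 77710, against 89866 to 140960 CPM in N2 with a median of 115536. It was lower at 13 of 13 hours and the ranges did not overlap. The difference was -0.61 on the log2 scale (SE 0.0872, edgeR adjusted p = 2.50e-07). For comparison, the major arms of the 96 hairpins had a median of -0.48, with 65 called lower and 5 higher.

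miR-53-5p ranged from 6580 to 9300 CPM in Alg1E with a median of 7793, against 6647 to 10736 CPM in N2 with a median of 8710. The ranges largely overlapped, and the difference of -0.10 on the log2 scale (95% interval -0.28 to 0.08) was not called (edgeR adjusted p = 0.329). Its direction depended on the scaling. It was 0.17 with total counts (adjusted p = 0.049) and 0.32 with TMM computed from major arms and unpaired miRNAs (adjusted p = 0.00219), but -0.21 with DESeq2's size factors in edgeR (adjusted p = 0.0381) and -0.27 against N2 libraries 2 h younger (adjusted p = 0.0223). Relative to TMM, the 3 scalings shifted the median difference of all miRNAs by 0.275, 0.423 and -0.115. The split of calls was 113 higher and 65 lower with total counts, 124 and 55 with major-arm TMM, and 81 and 101 with size factors. miR-52-5p stayed lower in Alg1E under all of them, between -0.73 and -0.19, and the 3 passenger arms stayed higher.

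miR-51-5p ranged from 6395 to 37475 CPM in Alg1E with a median of 11888, against 6413 to 18715 CPM in N2 with a median of 12268. It was higher in Alg1E at 8 of 13 hours and lower at 5, with a difference of 0.23 on the log2 scale (95% interval -0.19 to 0.65, edgeR adjusted p = 0.324). With total counts the difference was 0.51 (adjusted p = 0.0248) and with major-arm TMM it was 0.65 (adjusted p = 0.00545). Without the 27 h library of Alg1E it was 0.07 (adjusted p = 0.734).

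**Figure D2:**
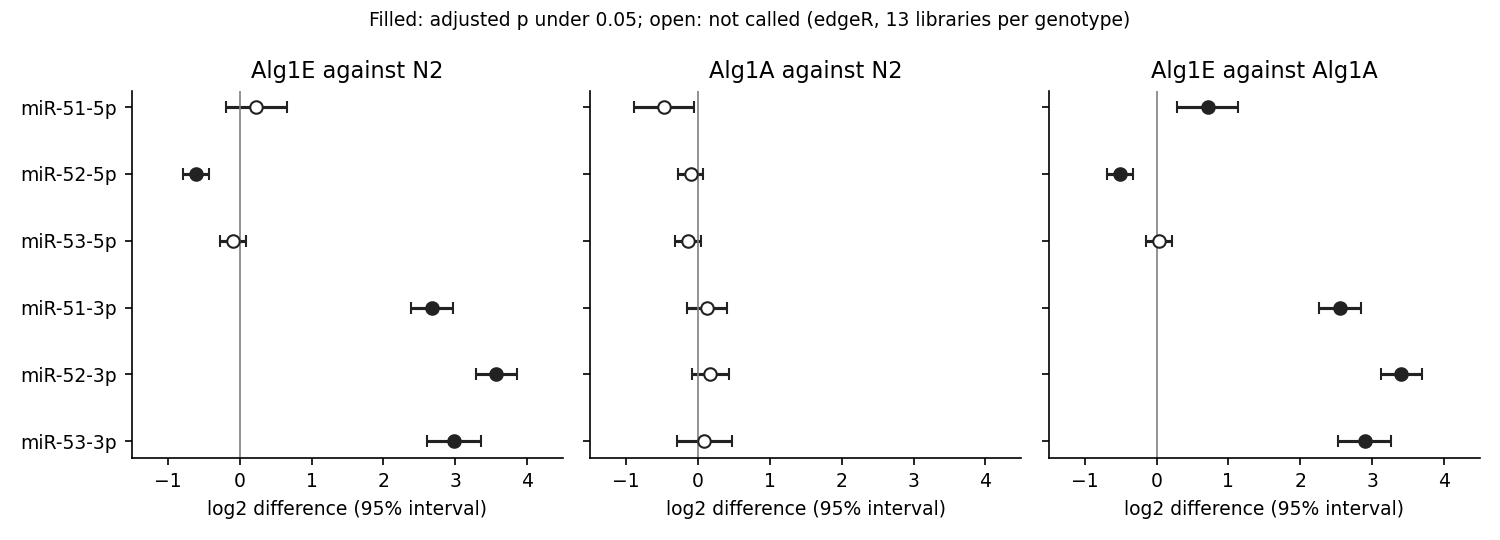
Log2 differences in level with 95% intervals for the 6 arms in Alg1E against N2, Alg1A against N2 and Alg1E against Alg1A, from edgeR over 13 libraries per genotype; filled points have an adjusted p under 0.05. The 3p arms lie between 2.55 and 3.57 in both comparisons with Alg1E, while no arm is called in Alg1A against N2.

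No member was called between Alg1A and N2. Of the 6 arms, 0 passed edgeR's adjusted threshold and 0 passed DESeq2's, with 1 arm, miR-51-5p, at an unadjusted p under 0.05, against 26 of 243 miRNAs called (10.7%). miR-52-5p ranged from 75101 to 232977 CPM in Alg1A with a median of 100188 and overlapped N2, with a difference of -0.11 on the log2 scale (95% interval -0.28 to 0.07, edgeR adjusted p = 0.438). miR-53-5p differed by -0.14 (adjusted p = 0.317) and miR-51-5p by -0.48 (adjusted p = 0.138, but 0.0372 when these 2 genotypes were fitted alone).

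The passenger arms of Alg1A lay close to those of N2. miR-52-3p averaged 504 ± 104 CPM in Alg1A and 448 ± 94.7 CPM in N2, miR-51-3p 237 ± 63.7 CPM in Alg1A and 218 ± 59.8 CPM in N2, and miR-53-3p 8.76 ± 3.23 CPM in Alg1A and 8.08 ± 2.80 CPM in N2 (mean ± SD of 13 libraries). Their differences of 0.17, 0.13 and 0.09 on the log2 scale had 95% intervals that reached at most 0.47, so they allow less than the rises seen in Alg1E.

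The calls of the guide arms in Alg1A against N2 changed when hours before 20 h were left out of the fit in every genotype. The part of the Alg1A libraries of those hours alone was not tested. Over 20 to 30 h alone, the differences from N2 were -0.67 for miR-51-5p (adjusted p = 0.0384), -0.23 for miR-52-5p (adjusted p = 0.0375) and -0.26 for miR-53-5p (adjusted p = 0.0269), all called as lower in Alg1A by edgeR. In that span 48 miRNAs were called in all. The number tested in that fit is not given here, so these calls do not set the guide arms apart from other miRNAs.

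Between the mutants, 190 of 243 miRNAs were called (78.2%), as were 5 of the 6 arms. The passenger arms were higher in Alg1E than in Alg1A by 3.40 for miR-52-3p (adjusted p = 2.52e-19), 2.90 for miR-53-3p (adjusted p = 8.31e-15) and 2.55 for miR-51-3p (adjusted p = 4.83e-16) on the log2 scale, at 13 of 13 hours each and with no overlap. miR-52-5p was lower in Alg1E at 13 of 13 hours, by -0.51 (edgeR adjusted p = 6.29e-06), although the ranges overlapped. With major-arm TMM that difference was -0.17 (adjusted p = 0.0864). miR-51-5p was higher in Alg1E by 0.71 (adjusted p = 0.00278), at 9 of 13 hours. miR-53-5p differed by 0.04 (95% interval -0.14 to 0.22, adjusted p = 0.709), and was called higher with total counts (0.23, adjusted p = 0.0119) and with major-arm TMM (0.38, adjusted p = 0.000474).

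The balance of the arms within a hairpin needs no scaling between libraries. miR-52-3p reads were between 2.68% and 11.1% of miR-52-5p reads in Alg1E with a median of 6.83%, between 0.171% and 0.735% in Alg1A with a median of 0.536%, and between 0.246% and 0.683% in N2 with a median of 0.396%. Every Alg1E library lay above every library of the other genotypes. The ratio was 18.0-fold higher in Alg1E than in N2 (4.17 on the log2 scale, SE 0.173, adjusted p = 2.56e-19, limma). Among 94 hairpins this change ranked 2, after miR-70 with 4.40 and before miR-60 with 3.96, each within 2 SE of miR-52.

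miR-53-3p was the scarcest passenger relative to its guide. It ranged from 0.492% to 1.52% of miR-53-5p reads in Alg1E with a median of 0.705%, from 0.0337% to 0.215% in Alg1A with a median of 0.105%, and from 0.0547% to 0.197% in N2 with a median of 0.0910%. Alg1E did not overlap the other genotypes. Against N2 the ratio was 8.42-fold higher (3.07 on the log2 scale, SE 0.225, adjusted p = 1.71e-13, limma), ranking 20 of 94 between miR-244 and lin-4. miR-53-5p, its denominator, is the arm whose own reads are uncertain.

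Relative to its own guide, miR-51 had the highest mean passenger share of the 3 hairpins in each genotype. miR-51-3p ranged from 1.99% to 25.3% of miR-51-5p reads in Alg1E with a median of 11.7%, from 0.900% to 9.06% in Alg1A with a median of 3.38%, and from 0.860% to 5.41% in N2 with a median of 1.75%. Alg1E overlapped N2 through its 27 h library, at 1.99%, and overlapped Alg1A at further hours as well. The ratio was higher in Alg1E than in N2 at 12 of 13 hours. The change was 5.46-fold (2.45 on the log2 scale, SE 0.320, adjusted p = 3.28e-08, limma) and ranked 34 of 94, between miR-64 and miR-2. The median over the 91 other hairpins was 13.1% in Alg1E, 3.33% in Alg1A and 2.82% in N2.

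**Figure D3:**
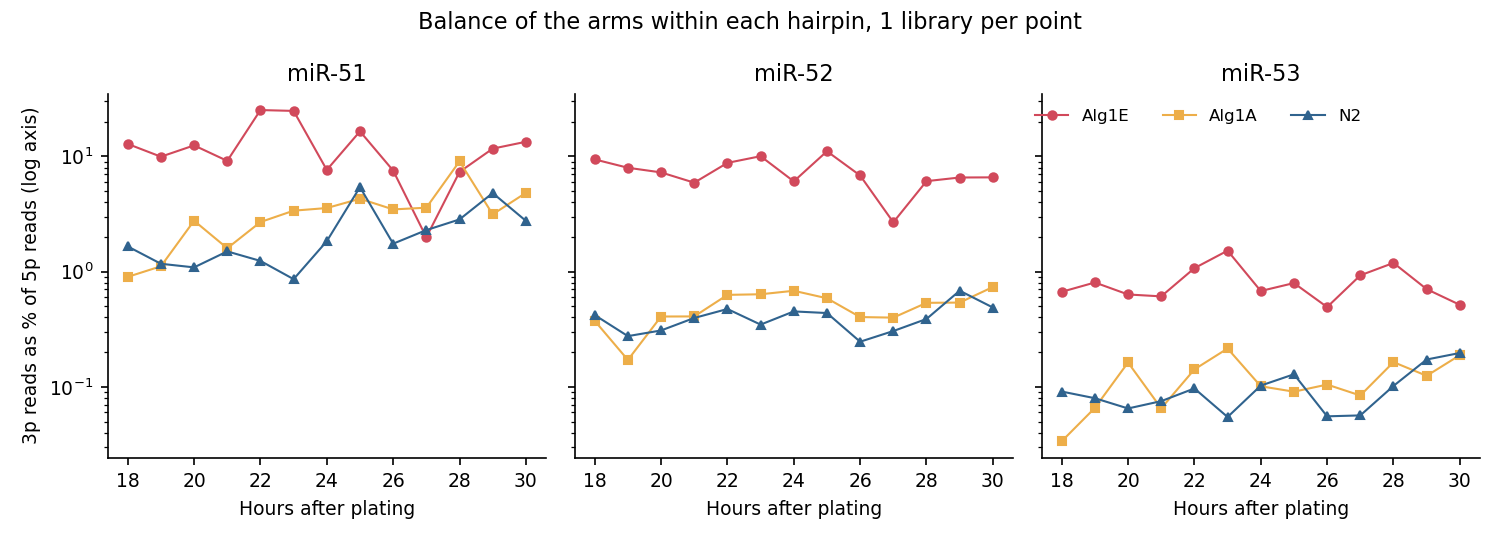
Reads of the 3p arm as a percentage of reads of the 5p arm (log axis) for each hairpin against hours after plating; each point is 1 library of Alg1E (red), Alg1A (yellow) or N2 (blue). For miR-52 and miR-53 all Alg1E points lie above the others, while for miR-51 the 27 h point of Alg1E drops to 1.99%, among the N2 points.

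Of 94 hairpins, 83 changed arm ratio between Alg1E and N2 (88.3%), with 81 toward the minor arm and 2 away from it and a median log2 change of 2.05. The 3 hairpins were all among those 81. The exact sign-flip permutation test over the 13 hours (two-sided, 15 tests adjusted together) set this change of miR-52 and of miR-51 against the other hairpins and against each other. miR-53 was not tested in this way. For miR-52 it restates the rank of 2 among the 94 hairpins, in data whose earlier results were known. Its p-value is thus no separate support. miR-52 changed by 1.96 more than the median of the other hairpins on the log2 scale (SD over hours 0.584, more at 13 of 13 hours, adjusted p = 0.00061). Its unadjusted p of 0.000244 is the smallest that 13 hours can give. miR-51 changed by 0.24 more than that median (SD 1.47, more at 7 of 13 hours, adjusted p = 0.655), which is within the spread between hours. miR-52 changed by 1.72 more than miR-51 (SD 1.05, more at 12 of 13 hours, adjusted p = 0.00157). This restates the limma changes of miR-52 and miR-51 given above, so its p-value is no separate support either.

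Between Alg1A and N2 no arm ratio of the 3 hairpins was called, with 0 of 3 also at an unadjusted p under 0.05 in limma, the single tool run for arm ratios, against 20 of 94 hairpins called (21.3%). The log2 changes were 0.59 for miR-51 (SE 0.320, adjusted p = 0.188), 0.29 for miR-52 (SE 0.173, adjusted p = 0.230) and 0.24 for miR-53 (SE 0.225, adjusted p = 0.430), beside a median of 0.28 over the 94. Over 20 to 30 h alone, miR-52 was called with 0.41 (adjusted p = 0.0484). The count of hairpins called in that span is not given here.

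Between Alg1E and Alg1A, 81 of 94 hairpins changed (86.2%), with a median of 1.77 on the log2 scale. miR-52 changed by 3.88 (rank 3), miR-53 by 2.84 (rank 21) and miR-51 by 1.86 (rank 43), and limma called all 3.

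**Figure D4:**
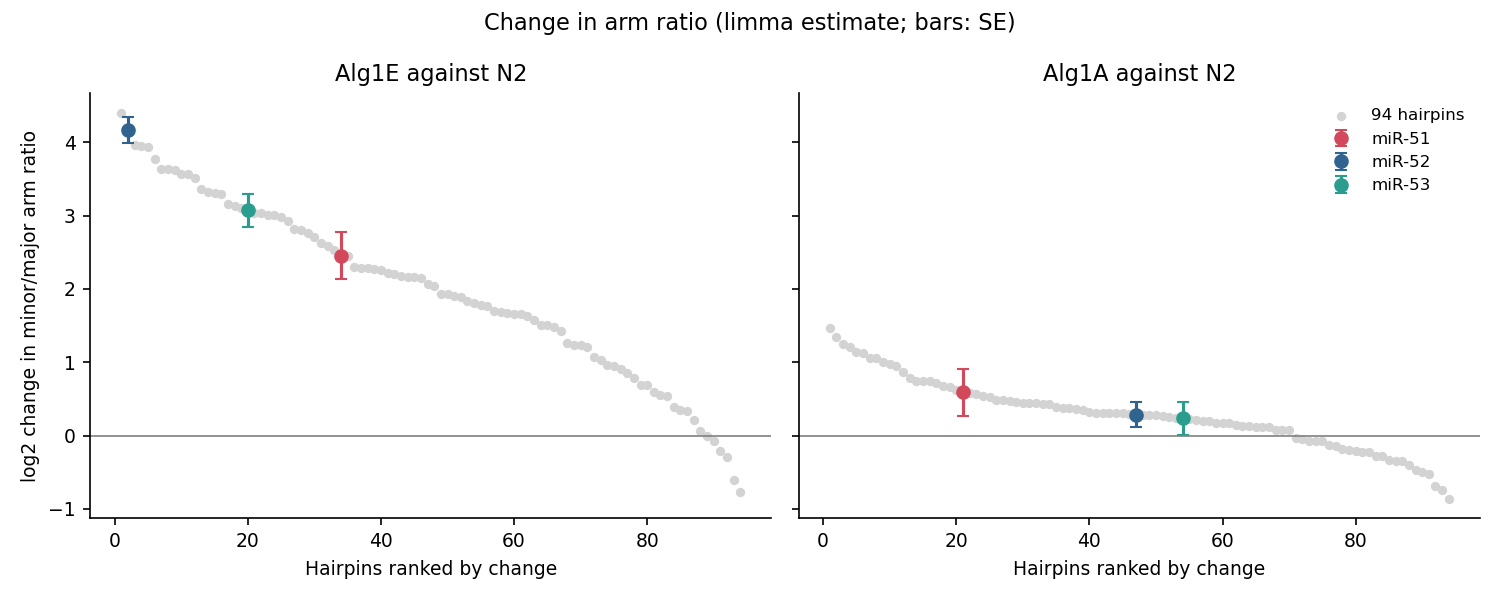
Log2 change in the ratio of minor to major arm for 94 hairpins, ranked from the highest, for Alg1E against N2 (left) and Alg1A against N2 (right); grey points are hairpins and coloured points with SE bars are miR-51, miR-52 and miR-53. In Alg1E, miR-52 ranks 2, miR-53 ranks 20 and miR-51 ranks 34, while in Alg1A all 3 lie below 0.60.

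The guide arms were then compared with one another inside each library, which also needs no scaling. These ratios restate differences in level given above, from the same libraries and with those results known. Their p-values are thus no separate support. miR-53-5p reads were between 9.25% and 11.7% of miR-52-5p reads in Alg1E with a median of 10.7%, between 7.13% and 7.60% in Alg1A with a median of 7.34%, and between 7.06% and 7.73% in N2 with a median of 7.55%. The coefficient of variation over hours was 5.74% in Alg1E, 2.21% in Alg1A and 2.59% in N2. Alg1E did not overlap the other genotypes. The ratio was 1.43-fold higher in Alg1E than in N2 (0.51 on the log2 scale, SD 0.0849, higher at 13 of 13 hours, exact sign-flip adjusted p = 0.00061). Against Alg1A it was higher by 0.54, also at 13 of 13 hours (adjusted p = 0.00061).

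In Alg1A the same ratio was lower than in N2 by a small amount. The mean difference was -0.03 on the log2 scale (SD 0.0425, lower at 9 of 13 hours, exact sign-flip adjusted p = 0.0311), and the ranges overlapped. With every other hour alone the value was -0.03 and the adjusted p was 0.18. The SD between N2 libraries, 0.195 percentage points, exceeded the median counting SD of 0.0479 points. These ratios depend on how near-identical reads were assigned, and whether that share differs between libraries was not tested.

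miR-51-5p reads were between 9.98% and 47.1% of miR-52-5p reads in Alg1E with a median of 16.2%, between 4.95% and 11.6% in Alg1A with a median of 7.15%, and between 6.92% and 14.4% in N2 with a median of 9.61%. The highest value, 47.1%, came from the 27 h library of Alg1E. The ratio was higher in Alg1E than in N2 by 0.81 on the log2 scale (SD 0.765, higher at 11 of 13 hours, exact sign-flip adjusted p = 0.00458), and by 0.68 without that library (adjusted p = 0.0061). In Alg1A it was lower than in N2 by -0.36 (SD 0.420, lower at 11 of 13 hours, adjusted p = 0.0183). Against Alg1A it was higher in Alg1E by 1.18 at 13 of 13 hours (adjusted p = 0.00061).

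**Figure D5:**
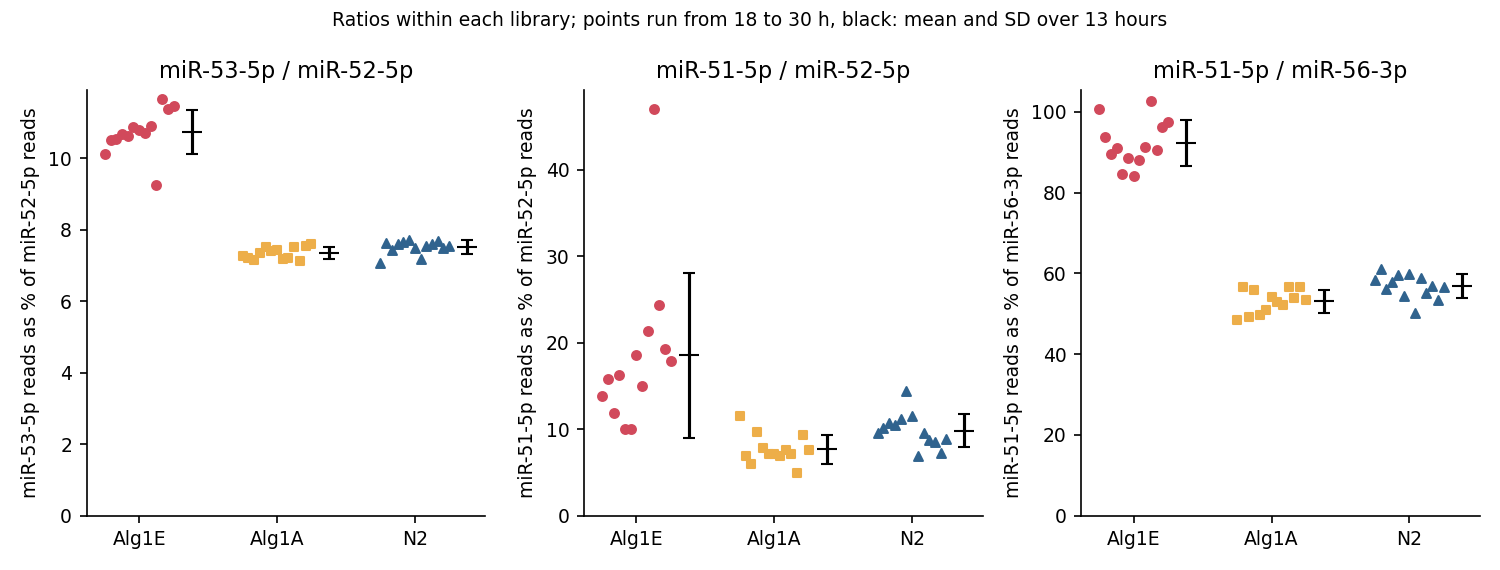
Ratios of guide arms within each library, as percentages, for miR-53-5p over miR-52-5p (left), miR-51-5p over miR-52-5p (middle) and miR-51-5p over miR-56-3p (right); points run from 18 to 30 h from left to right within a genotype, and black bars give the mean and SD over 13 hours. Alg1E lies above Alg1A and N2 without overlap in the left and right panels, with means of 10.7% and 92.3%.

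Hour by hour, miR-51-5p ran with the guide arms of the chromosome X hairpins. Over the 13 N2 libraries the miRNAs most like it by Pearson's r of log2 CPM were miR-56-3p (0.99), miR-55-3p (0.98) and miR-54-3p (0.97). The r with miR-56-3p was 0.99 in Alg1E and 0.99 in Alg1A as well. Without 27 h it was 0.98 in Alg1E, and over 20 to 30 h it was 0.98 in Alg1A. These values share a library, its depth and its scaling factor at each point, and are a description. miR-51-5p reads were on average 92.3% of miR-56-3p reads in Alg1E, 53.1% in Alg1A and 56.8% in N2, with coefficients of variation over 13 hours of 6.20% in Alg1E, 5.44% in Alg1A and 5.29% in N2. The lowest Alg1E value, 84.2%, exceeded the highest value of the other genotypes, 61.1%, in N2. This ratio was chosen after its values were seen, so no test is given.

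miR-52-5p and miR-53-5p ran together over hours, with r of 0.92 in Alg1E, 1.00 in Alg1A and 0.98 in N2 (n = 13 libraries each). This r was 0.98 in Alg1E without 27 h (n = 12) and 0.98 in Alg1A over 20 to 30 h (n = 11). The part that the assignment of near-identical reads has in this r was not tested. Between miR-51-5p and miR-53-5p, its neighbour on the chromosome, r was 0.07 in Alg1E, 0.85 in Alg1A and 0.93 in N2. Without 27 h it was 0.36 in Alg1E (n = 12), and over 20 to 30 h it was 0.66 in Alg1A (n = 11). The correlation of miR-51-5p with its own 3p arm was negative in every genotype, at -0.84 in Alg1E, -0.72 in Alg1A and -0.91 in N2, and stayed so at -0.66 in Alg1E without 27 h and -0.59 in Alg1A over 20 to 30 h. The 2 arms of miR-52 had r of 0.33 in Alg1E, -0.21 in Alg1A and -0.11 in N2, which became 0.63 in Alg1E without 27 h and 0.06 in Alg1A over 20 to 30 h.

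Over all 39 libraries, where genotype itself spreads the points, the passenger arms resembled passenger arms of other hairpins. miR-52-3p was most like miR-55-5p (0.99), miR-51-3p most like miR-52-3p (0.96) and miR-53-3p most like miR-56-5p (0.95). Among the guides, miR-51-5p was most like miR-45-3p (0.88), miR-52-5p most like miR-57-5p (0.90) and miR-53-5p most like miR-49-3p (0.78).

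The passengers of the chromosome X hairpins rose in Alg1E too, while none of their guides was called higher with TMM. The guides differed by -0.93 (miR-54-3p, adjusted p = 2.73e-06), -0.26 (miR-55-3p, not called, adjusted p = 0.215) and -0.46 (miR-56-3p, adjusted p = 0.0421) on the log2 scale, beside -0.61 for miR-52-5p. The passengers rose by 1.76 (miR-54-5p), 3.01 (miR-55-5p) and 3.45 (miR-56-5p), called in edgeR.

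Change over the 13 hours was limited in N2. A spline in hours called 67 of 243 miRNAs in N2 (27.6%) and 0 of the 6 arms, with miR-51-3p and miR-51-5p at an unadjusted p under 0.05 in edgeR, the single tool run over time. The fitted change at 30 h relative to 18 h was -0.53 on the log2 scale for miR-52-5p (adjusted p = 0.126), -0.46 for miR-53-5p (adjusted p = 0.172), -0.66 for miR-51-5p (adjusted p = 0.115) and 0.38 for miR-51-3p (adjusted p = 0.0891). A straight line in hours called miR-52-5p (adjusted p = 0.0345), miR-53-5p (adjusted p = 0.0425) and miR-51-3p (adjusted p = 0.0419). The alternative fits called between 63 and 93 miRNAs in N2. The count for the straight line alone is not given here, so its calls do not set these arms apart.

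In Alg1A, 109 miRNAs changed with time (44.9%), among them 4 of the 6 arms. miR-52-5p fell by 1.38 on the log2 scale over the span (adjusted p = 0.000109), miR-53-5p by 1.30 (adjusted p = 0.000252) and miR-51-5p by 1.54 (adjusted p = 0.00898), while miR-51-3p rose by 0.77 (adjusted p = 0.00847). miR-52-5p stood at 143264 CPM at 18 h and 232977 CPM at 19 h, and between 75101 and 106466 CPM from 20 h on. In a fit over 20 to 30 h, which leaves out 18 and 19 h in every genotype, none of these 4 was called. The fitted changes of the guides were then -0.56 for miR-52-5p (adjusted p = 0.0606), -0.48 for miR-53-5p (adjusted p = 0.167) and -0.37 for miR-51-5p (adjusted p = 0.872). miR-51-3p kept a change of 0.66 (adjusted p = 0.058). The 18 and 19 h libraries of Alg1A also had low miR-1-3p and miR-60-3p, whose part in the falls was not tested.

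In Alg1E, 108 miRNAs changed with time (44.4%), and miR-51-5p was the member called (adjusted p = 0.0165, edgeR). Its fitted change at 30 h relative to 18 h was -0.45 on the log2 scale, but the course was not monotonic. It stood at 6395 CPM at 23 h, 37475 CPM at 27 h and 11888 CPM at 30 h. Without the 27 h library the adjusted p was 0.309. miR-52-3p fell by 0.97 on the fitted curve, with an adjusted p of 0.0515, and was called with a straight line (adjusted p = 0.0114) and with total counts (adjusted p = 0.0174).

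The time course itself was compared between genotypes. Between Alg1E and N2 it differed for 86 miRNAs (35.4%), and among the 6 arms for miR-51-5p (adjusted p = 0.00776, but 0.121 with 2 spline degrees of freedom in place of 3). It was not particular to miR-51. Of the chromosome X arms, edgeR called miR-54-3p (adjusted p = 0.0192), miR-55-3p (0.0223), miR-56-3p (0.00948) and miR-54-5p (0.0176). It did not call miR-55-5p (0.293) or miR-56-5p (0.0580). In N2 miR-51-5p was highest at 23 h, with 18715 CPM, the hour at which it was lowest in Alg1E. In that N2 library miR-54-3p, miR-55-3p and miR-56-3p were also at their highest for N2, with 45040, 30553 and 34397 CPM. There miR-1-3p, miR-60-3p and miR-124-3p were at their lowest for N2. The part of this library in the difference was not tested, and no test of the course left it out. Between Alg1E and Alg1A the course differed for 69 miRNAs (28.4%), including miR-51-5p (adjusted p = 0.0233) and miR-51-3p (adjusted p = 0.0257). Without the 27 h library of Alg1E these last values were 0.0598 for miR-51-5p and 0.0538 for miR-51-3p. With that library, edgeR also called miR-55-3p (adjusted p = 0.0330) and miR-56-3p (0.0134) between Alg1E and Alg1A, but none of the other chromosome X arms. Between Alg1A and N2 the course differed for 6 miRNAs (2.47%) and for 0 of the 6 arms, with 0 also at an unadjusted p under 0.05 in edgeR.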

How the data were processed

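The deposited table gives the authors' read counts for each mature miRNA as whole numbers, not normalized. Per the labels' protocols, libraries were made with a QIAseq miRNA kit, and cutadapt 2.3, Bowtie 1.2.2, SAMtools 1.9, HTSeq and the build ce11 are named in the submitters' processing notes. The sources used here give no mapping settings, annotation version, strand or use of molecular identifiers. If PCR copies were not collapsed, they count as reads.

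Summary entries, of which reads without a feature took 49.5% in Alg1E, 35.3% in Alg1A and 37.2% in N2, stayed out of library sizes. Here, edgeR 4.0.16 (R 4.3.3) tested all rows that filterByExpr kept, with TMM scaling and genotype plus hour as a factor over 39 libraries. Time used a natural spline with 3 degrees of freedom and its interaction with genotype. limma 3.58.1 tested log2 minor to major arm ratios (prior count 0.5, at least 10 mean reads per arm) for 94 of 186 hairpins with both arms. Ratios within libraries were tested by exact sign flips over 13 hours (scipy 1.17.1). Tests were two-sided, adjusted by Benjamini-Hochberg, threshold 0.05. DESeq2 1.42.0, other scalings, filters, spans and designs were alternatives. Scripts were tested on simulated data. Loci come from the WBcel235 annotation. Libraries of different genotypes were matched through the hour alone, since the labels give no culture or batch.

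The text names all arms of miR-51 to miR-56, the 3 closest miRNAs by correlation, the neighbours in rank of miR-52-5p and of the arm ratios, and marker miRNAs. Members and lists were chosen with earlier results of these data known.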

Additional observations from a re-analysis of the deposited data

Results flagged for a closer look

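The course over the 13 hours differed between genotypes for arms of miR-51 in 3 tests, each an interaction of genotype with the spline in hours in edgeR. miR-51-5p differed between Alg1E and N2 with an adjusted p of 0.00776, and between Alg1E and Alg1A with an adjusted p of 0.0233. miR-51-3p differed between Alg1E and Alg1A with an adjusted p of 0.0257. Without the 27 h library of Alg1E, both calls against Alg1A were lost, with 0.0598 for miR-51-5p and 0.0538 for miR-51-3p, while miR-51-5p against N2 stayed called with 0.0348. With 2 spline degrees of freedom miR-51-5p against N2 had 0.121 and miR-51-3p against Alg1A had 0.0548. In Alg1E, miR-51-5p was at 6395 CPM at 23 h and 37475 CPM at 27 h, and miR-51-3p was lowest at 27 h, with 744 CPM. In that library miR-54-3p, miR-55-3p and miR-56-3p were also at their highest for Alg1E, with 32669, 47805 and 36524 CPM, and the muscle, intestine and neuron markers were at their lowest. At 23 h in N2, miR-51-5p and these 3p arms were at their highest for N2, and miR-1-3p, miR-60-3p and miR-124-3p at their lowest. The part of the markers in the difference was not tested. The same interaction was called in edgeR for miR-54-3p, miR-55-3p, miR-56-3p and miR-54-5p in Alg1E against N2. Against Alg1A it was called for miR-55-3p and miR-56-3p.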

How the results depend on the processing

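The limits are 1 library per genotype and hour, unknown cultures, near-identical miR-52-5p and miR-53-5p, and few miR-53-3p reads, 12 to 42 per library in Alg1A and 14 to 36 in N2. Neighbouring hours resembled each other in Alg1E against N2, with lag-1 correlations of residuals of 0.49 (miR-51-5p), 0.46 (miR-51-3p), 0.31 (miR-52-3p) and 0.28 (miR-53-3p). Against Alg1A they were 0.61 (miR-51-3p), 0.47 (miR-51-5p) and 0.36 (miR-52-3p), and in Alg1A against N2 0.50 (miR-52-3p). The other values of the 6 arms lay between -0.13 and 0.09. P-values for the arms named may be too small. The sign-flip tests also treat hours as independent, which was not tested for the ratios. The labels give no replicate numbers, so the hour served as the block, and a fit without it changed 0 calls of the 6 arms between genotypes.

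Differences of arms that turned sign, none called except where stated, were as follows. miR-51-5p in Alg1E against N2 was -0.030 with every other hour and -0.031 with N2 set 2 h earlier. miR-53-5p there was 0.17 with total counts and 0.32 with major-arm TMM, both called. Against Alg1A it was -0.061 with size factors and with DESeq2, -0.0037 with 2 genotypes and -0.0091 with no hour term. miR-53-3p in Alg1A against N2 was -0.019 with every other hour. Over time, miR-52-3p in N2 was -0.092 with 2 spline degrees of freedom and -0.075 with a line. In Alg1E, miR-51-5p was 0.72 with both, and miR-51-3p was -0.20 with both, -0.16 with major-arm TMM and -0.16 with total counts. The arm ratio of miR-52 minus the median of others in Alg1A against N2 was -0.0014 with prior count 5, and that of miR-51 in Alg1E against Alg1A was 0.16 without 27 h.

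Counts of calls moved as follows. Alg1A against N2 gave 51 with 2 genotypes fitted, 48 over 20 to 30 h and 10 with every other hour, and its arm ratios gave 13 with every other hour. Change with hour gave 60 in Alg1A over 20 to 30 h, and in Alg1E 67 with 2 spline degrees of freedom and 50 fitted alone. Differences in course gave 18 (2 degrees) and 39 (line) for Alg1E against N2, and 32 (2 degrees) and 39 (2 genotypes fitted) for Alg1E against Alg1A. For Alg1A against N2 they gave 11 with total counts and, in edgeR, 0 with 2 degrees, a line and 20 to 30 h, where 11, 5 and 11 miRNAs had an unadjusted p under 0.05.

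With every other hour, 4 ratios within libraries lost their call, namely miR-51-5p over miR-52-5p in Alg1E against N2 (0.70) and in Alg1A against N2 (-0.44), miR-53-5p over miR-52-5p in Alg1A against N2 (-0.030), and the arm ratio of miR-52 minus miR-51 in Alg1E against N2 (1.56). The cause of these changes was not tested. The other 64 of 70 ratio results and 50 of 51 arm-ratio results of the 3 hairpins kept direction and call.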
